A study of Mus musculus with 12 samples.

Results

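The Fc gamma receptor genes were followed through the transcriptomes of mouse bone marrow-derived macrophages (BMDMs). The group was chosen by gene name and held 6 of the 34327 genes in the table: Fcgr1, Fcgr2b, Fcgr3, Fcgr4, Fcer1g and Fcgrt. All 6 were found, and all 6 passed the filter on low values. The BMDMs were labelled wild-type C57BL/6 and were grown from C57BL/6J marrow in L929-conditioned medium. They were kept on tissue culture (TC) plates, or embedded in gels of rat tail collagen I at 2 mg/ml (low-collagen gels) or 7 mg/ml (high-collagen gels), and were left untreated or given recombinant IL-4 at 20 ng/ml. Every condition was sampled at a nominal 24 hours, although the protocol gives a range of hours around it. The study asked whether the collagen around a macrophage changes its response to IL-4, and the 6 conditions had 2 RNA-seq libraries each, 12 in all.

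Fc gamma receptors bind the constant part of IgG, and so let a macrophage take up or react to whatever the antibody has coated. Fcgr1 encodes the high-affinity receptor, and Fcgr3 and Fcgr4 encode activating receptors of lower affinity. These 3 receptors signal through the common gamma chain, encoded by Fcer1g, whose ITAM motif recruits the kinase Syk. Fcgr2b encodes the inhibitory receptor, whose ITIM motif recruits the phosphatase SHIP1 and dampens the activating signal. Fcgrt encodes the heavy chain of the neonatal Fc receptor, which pairs with beta-2 microglobulin inside the cell and returns IgG from endosomes to the surface. In macrophages the balance between activating and inhibitory receptors is known to set the threshold for a response to immune complexes.

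On GRCm38, 4 of the genes stand together on chromosome 1: Fcgr2b at chr1:170958617-170976547 (minus strand), Fcgr4 at chr1:171018920-171029761 (plus strand), Fcgr3 at chr1:171051174-171064935 (minus strand) and Fcer1g at chr1:171229572-171234365 (minus strand). Fcgr4 lay 42373 bp from Fcgr2b and 21413 bp from Fcgr3, and Fcer1g lay 164637 bp beyond Fcgr3. Fcgr1 is on chromosome 3 (chr3:96282909-96293969, minus strand) and Fcgrt on chromosome 7 (chr7:45092990-45103851, minus strand).

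The inhibitory Fcgr2b and the activating Fcgr3 share much of the sequence that codes for their IgG-binding part, which bears on how reads were divided between them. The printed stretch of 120 coding bases lies in exon 3 of each gene, on the minus strand of GRCm38 (chr1:170967984-170968103 in Fcgr2b and chr1:171057695-171057814 in Fcgr3). The single base that differs is in capitals, and the longest identical run is 98 bases.
Fcgr2b: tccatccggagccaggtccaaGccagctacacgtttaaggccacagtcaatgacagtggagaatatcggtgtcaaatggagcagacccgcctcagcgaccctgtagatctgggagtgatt
Fcgr3: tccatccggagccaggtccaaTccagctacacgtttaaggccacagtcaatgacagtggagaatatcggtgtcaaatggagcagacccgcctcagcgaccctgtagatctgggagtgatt
Of the 771 words of 31 bases in the Fcgr3 coding sequence, 233 (30.2%) also occurred in that of Fcgr2b. A word of 31 bases is the default length by which kallisto, the program the authors used, matches reads to transcripts. The pair of coding sequences, laid side by side without gaps, was 72.3% identical over 801 bases. Identity was 92.2% to 100% per block between bases 196 and 555 of the Fcgr2b coding sequence, and 28.9% to 33.3% in the first and the last 2 blocks compared. Short reads from the shared part can fit either gene, so the split of reads between Fcgr2b and Fcgr3 was an estimate. Its part in the results for both genes and for their ratio was not tested. A wider count took all transcripts of a gene, not only coding sequence, against all other genes. By that count Fcgr3 shared 13.4% of its 31-base words, Fcgr2b 5.78%, Fcgrt 1.60% and Fcgr4 1.31%, while Fcgr1 and Fcer1g shared none.

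**Figure D1:**
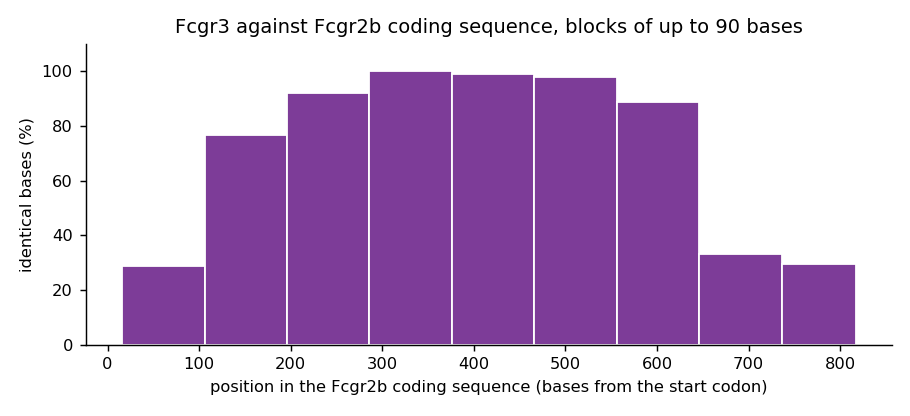
Share of identical bases (%) between the Fcgr3 and Fcgr2b coding sequences, compared without gaps in blocks of up to 90 bases, against position in the Fcgr2b coding sequence. The middle blocks reach 100% and the outer ones fall to 28.9%.

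The stretches upstream of Fcgr1 and Fcgr4 are shown because these were the members that IL-4 lowered in all 3 settings. Each is the 250 bases before the RefSeq start on GRCm38.p6, read on the gene's own strand, with chr3:96293970-96294219 for Fcgr1 and chr1:171018676-171018925 for Fcgr4. Capitals mark words found by a search of both strands.
Fcgr1: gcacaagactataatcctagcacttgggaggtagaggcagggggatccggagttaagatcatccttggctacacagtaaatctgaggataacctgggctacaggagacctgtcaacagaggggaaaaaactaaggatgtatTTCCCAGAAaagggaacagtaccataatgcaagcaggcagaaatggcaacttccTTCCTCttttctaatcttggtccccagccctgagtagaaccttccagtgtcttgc
Fcgr4: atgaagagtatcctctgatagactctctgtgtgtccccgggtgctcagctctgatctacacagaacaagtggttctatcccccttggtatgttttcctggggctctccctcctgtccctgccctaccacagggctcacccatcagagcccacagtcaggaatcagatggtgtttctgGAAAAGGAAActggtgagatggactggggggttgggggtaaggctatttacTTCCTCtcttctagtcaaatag
The Fcgr1 stretch held the GAS-type word TTCNNNGAA 109 bases before the start, and GAGGAA, the core bound by PU.1, on the other strand 55 bases before it. The Fcgr4 stretch held GAGGAA on the other strand 22 bases before the start and GAAANNGAAA, the core of an interferon-response element, 73 bases before it. Over 32851 mouse promoters of that length, 7.02% held TTCNNNGAA, 23.2% GAGGAA and 2.98% GAAANNGAAA. The word TTCNNNNGAA, the spacing preferred by STAT6, was in none of the 6 members' stretches and in 5.85% of all promoters. Fcgr3 had GAGGAA as well, and Fcgr2b, Fcer1g and Fcgrt had none of the 4 words in this window. For Fcgr2b (chr1:170976072-170976321) and Fcgr3 the window before the RefSeq start lies inside the gene span given above. The bases upstream of those 2 spans were not searched.

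Levels are given in TPM, a transcript's share of its library corrected for transcript length, so that genes can be set side by side. Fcer1g was the highest of the 6 in every library, from 1451 to 2393 TPM. Fcgr3 followed with 633 to 1525 TPM and Fcgr2b with 292 to 1781 TPM. Fcgrt ranged from 37.9 to 258.0 TPM, Fcgr4 from 24.3 to 182 TPM and Fcgr1 from 18.2 to 110 TPM. Between the highest and the lowest condition mean the range was widest for Fcgr4 (6.97-fold), followed by Fcgrt (6.44-fold) and Fcgr2b (5.91-fold), and narrowest for Fcer1g (1.55-fold). The 6 members together took 0.328% to 0.596% of all TPM.

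The libraries had the profile of macrophages. Totals were 999658 to 999723 TPM, 11543 to 11910 genes were at 1 TPM or more, and the paired libraries correlated at 0.980 to 0.985. All 8 macrophage markers were at 1 TPM or more in every condition and summed to 17768 to 55049 TPM. Lyz2 made up most of that sum, at 13223 to 48901 TPM, and Itgam was the lowest marker, at 1.29 to 10.9 TPM. NK cell, mast cell and fibroblast markers, which mark other cells that carry Fc receptors or share the tissue, summed to at most 0.762 TPM. Dendritic cell markers summed to 0.865 to 2.57 TPM. Eosinophil markers summed to 1.78 to 3.46 TPM on TC plates and 0.850 to 2.36 TPM in gels, with at most 2 of 5 at 1 TPM or more. B cell markers summed to 1.05 to 1.99 TPM on TC plates and 4.48 to 6.84 TPM in gels, with at most 1 of 5 at 1 TPM or more in a condition. Neutrophil markers summed to 4.38 to 9.43 TPM on TC plates and 13.4 to 31.4 TPM in gels, with 2 or 3 of 7 at 1 TPM or more. The defining neutrophil marker Ly6g was listed at 0 in all 12 libraries. The macrophage sum was 29150 to 29718 TPM on untreated TC plates. In untreated gels it was 44493 to 47388 TPM (low) and 54943 to 55049 TPM (high). With IL-4 it was lower, at 17768 to 17784 TPM on TC plates, 31428 to 32590 TPM (low) and 36544 to 38579 TPM (high). The macrophage, B cell, neutrophil and eosinophil lists thus moved with the gel comparisons, and the macrophage list also moved with IL-4. The part of these shifts in the results was not tested. TPM keeps no record of sequencing depth, so the depth behind each value is unknown.

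**Figure D2:**
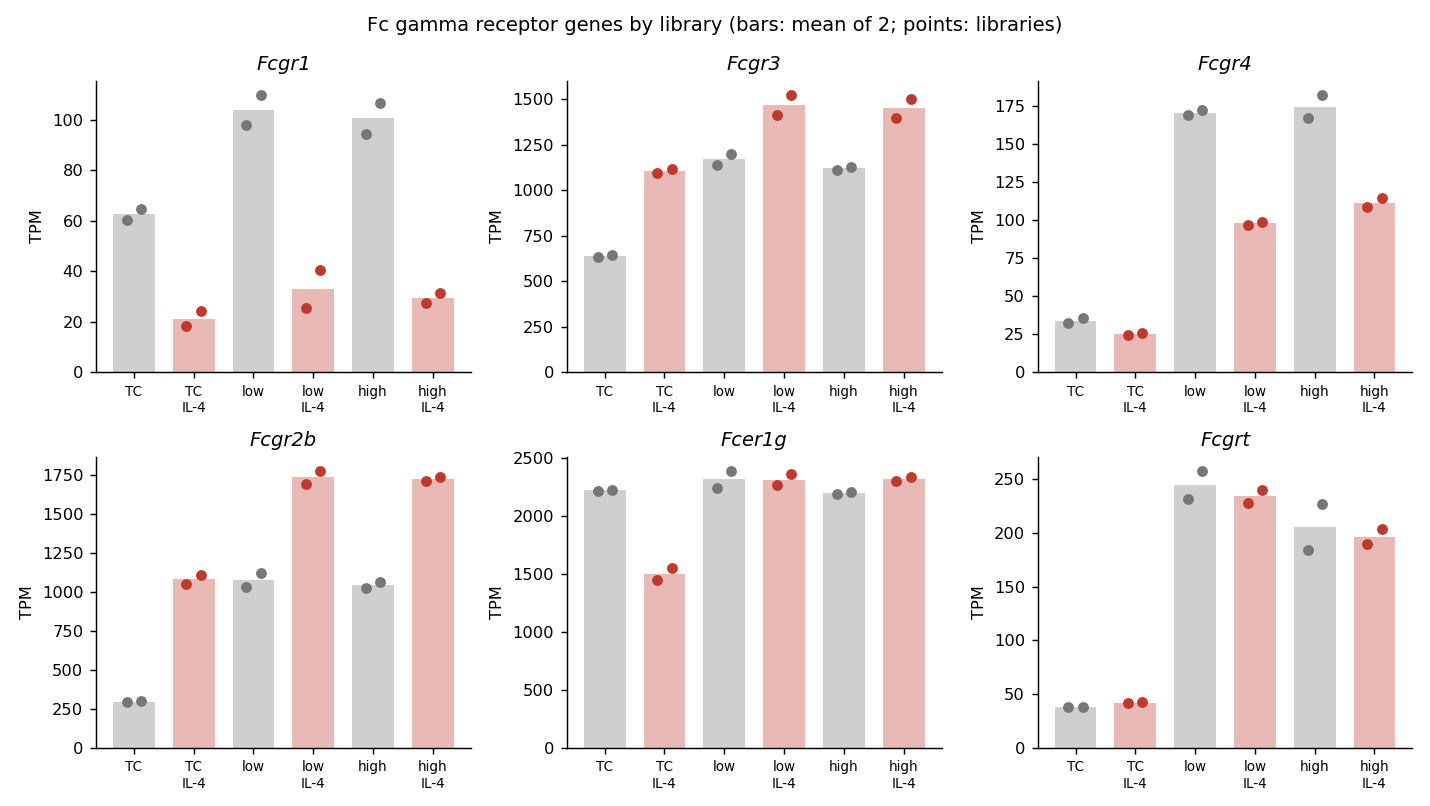
TPM of the 6 genes on linear axes that start at 0. Bars are means of 2 libraries, points are libraries, grey is untreated and red is IL-4; TC, low and high stand for TC plates, low-collagen gels and high-collagen gels. Fcgr1 and Fcgr4 are lower with IL-4 in each setting, and Fcgr2b and Fcgr3 are higher.

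With IL-4 on TC plates, the inhibitory Fcgr2b and the activating Fcgr3 rose, and the activating Fcgr1 and Fcgr4 fell. Fcgr2b rose most: it was at 297 and 292 TPM in the untreated libraries and 1054 and 1113 TPM with IL-4. This was a rise of 1.88 ± 0.05 (SE) on the scale of log2(TPM + 1), on which all fold changes here are given and which understates the change of low genes (adjusted p = 1.80e-08, limma). Of the 11865 genes tested, 0.919% rose more. Fcgr1, the high-affinity activating receptor, went the other way, from 60.4 and 64.6 TPM to 24.2 and 18.2 TPM. It fell by 1.53 ± 0.20 (limma adjusted p = 3.96e-04), and 1.35% of genes fell further.

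The activating receptors Fcgr3 and Fcgr4 split on TC plates. Fcgr3 was at 633 and 645 TPM untreated and 1095 and 1116 TPM with IL-4, a rise of 0.79 ± 0.05 (limma adjusted p = 4.94e-06). Fcgr4 was at 32.1 and 35.4 TPM untreated and 24.3 and 25.8 TPM with IL-4, and fell by 0.41 ± 0.07 (limma adjusted p = 0.00231). Fcer1g, the signalling chain, fell by 0.57 ± 0.05, from 2215 and 2228 TPM to 1549 and 1451 TPM (limma adjusted p = 2.36e-05). Fcgrt was at 37.9 and 38.1 TPM untreated and 41.7 and 42.2 TPM with IL-4, a difference of 0.14 ± 0.10 that did not pass the test (limma adjusted p = 0.350). The untreated and IL-4 libraries did not overlap for any of the 6, and neither did those of 62.7% of all genes tested, so this alone does not set the members apart. At a limma adjusted p under 0.2, the threshold for all limma calls, 2 of 6 members rose and 3 fell, where 14.7% of all genes rose and 24.0% fell.

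In low-collagen gels the receptors moved the same way with IL-4, and Fcer1g did not pass the test. Fcgr1 fell by 1.67 ± 0.20, from 97.7 and 110 TPM to 40.6 and 25.2 TPM (limma adjusted p = 6.97e-04). Fcgr4 fell by 0.79 ± 0.07, from 173 and 169 TPM to 99.1 and 96.9 TPM (limma adjusted p = 1.39e-04). Fcgr2b rose by 0.69 ± 0.06, from 1036 and 1120 TPM to 1781 and 1697 TPM (limma adjusted p = 1.16e-04).

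Fcgr3 rose by 0.33 ± 0.06 in these gels, from 1139 and 1201 TPM to 1416 and 1525 TPM (limma adjusted p = 0.00601). That call did not hold under quantile normalization, where the difference was 0.10 (limma adjusted p = 0.249). Fcer1g was at 2393 and 2245 TPM untreated and 2268 and 2365 TPM with IL-4. Its difference was -0.00 with a 95% interval of -0.12 to 0.12, and it was called higher after median-ratio rescaling (0.21) and lower after quantile normalization (-0.20). Fcgrt, at 258 and 231 TPM untreated and 228 and 240 TPM with IL-4, differed by -0.06 ± 0.11. So 2 of 6 members rose and 2 fell, where 13.2% of all genes rose and 40.4% fell.

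High-collagen gels gave close values. Fcgr1 fell by 1.74 ± 0.20, from 94.2 and 107 TPM to 31.1 and 27.5 TPM (limma adjusted p = 8.77e-04), and 0.574% of genes fell further. Fcgr4 fell by 0.64 ± 0.07, from 182 and 167 TPM to 114 and 108 TPM (limma adjusted p = 6.18e-04). Fcgr2b rose by 0.73 ± 0.06, from 1024 and 1062 TPM to 1738 and 1717 TPM (limma adjusted p = 1.26e-04). Fcgr3 rose by 0.37 ± 0.06, from 1130 and 1111 TPM to 1504 and 1401 TPM (limma adjusted p = 0.00531). Fcer1g, at 2192 and 2209 TPM untreated and 2306 and 2335 TPM with IL-4, differed by 0.08 ± 0.05 (limma adjusted p = 0.353). Fcgrt, at 227 and 184 TPM untreated and 203 and 190 TPM with IL-4, differed by -0.06 ± 0.11. Here too 2 of 6 rose and 2 fell, where 11.5% of all genes rose and 22.8% fell.

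**Figure D3:**
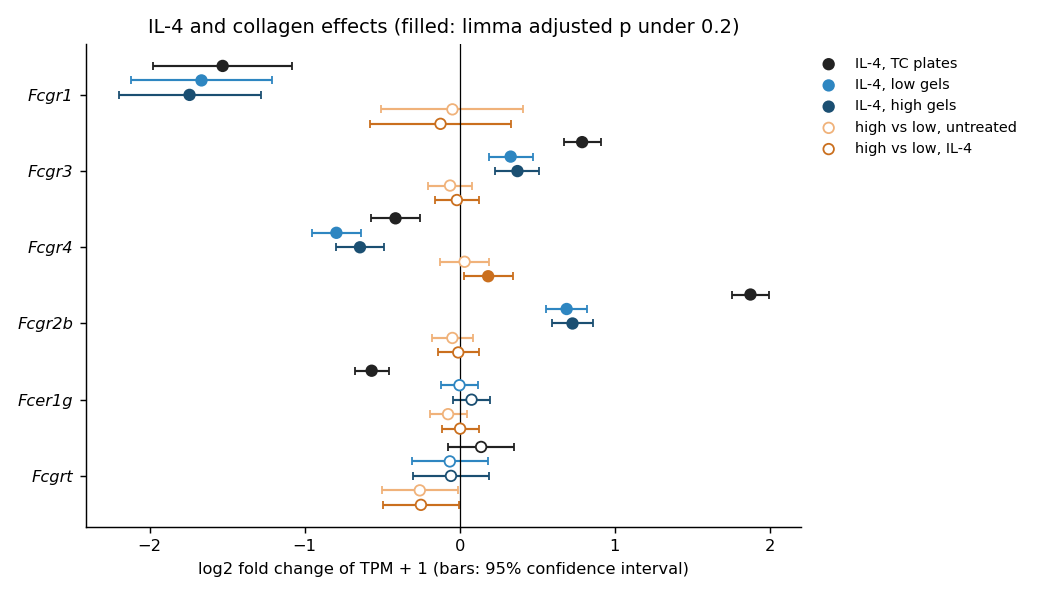
Log2 fold changes of TPM + 1 for the 6 genes, with IL-4 against untreated in 3 settings and with high against low collagen at both treatments. Points are limma estimates, bars are 95% confidence intervals, and filled points passed an adjusted p under 0.2. The 3 IL-4 points lie left of 0 for Fcgr1 and Fcgr4 and right of 0 for Fcgr2b and Fcgr3. Collagen points lie between -0.26 (Fcgrt, untreated) and 0.18 (Fcgr4, with IL-4).

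The members were also compared between gels of different collagen density. Without IL-4, 0 of 6 members were called between high- and low-collagen gels by limma, where 8.02% of all genes were called in either direction. At an unadjusted p under 0.05, 1 of the 6 passed, Fcgrt, which was at 227 and 184 TPM in high- and 258 and 231 TPM in low-collagen gels (-0.26 ± 0.11, limma adjusted p = 0.296). The 95% intervals of the other 5 all held 0. They ran from -0.18 to 0.09 for Fcgr2b, from -0.20 to 0.08 for Fcgr3, from -0.13 to 0.19 for Fcgr4, from -0.19 to 0.04 for Fcer1g and, most widely, from -0.50 to 0.41 for Fcgr1.

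With IL-4, 1 of 6 members was called, where 21.1% of all genes were called in either direction. It was Fcgr4, at 114 and 108 TPM in high- and 99.1 and 96.9 TPM in low-collagen gels, a rise of 0.18 ± 0.07 (limma adjusted p = 0.162). That call was lost without any 1 of the 4 libraries compared, with adjusted p from 0.287 to 0.428. It was also lost without the mean-variance trend and after median-ratio rescaling. Fcgrt was 0.25 lower in high-collagen gels and did not pass (limma adjusted p = 0.212), although it did under 4 other settings. The other members differed by 0.12 or less in size, and their intervals held 0. That of Fcgr1 was the widest, from -0.58 to 0.33, and with 1 library left out its difference ranged from -0.46 to 0.21.

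The response to IL-4 was compared directly between the gels, as an interaction of collagen and IL-4. By limma 0 of 6 members were called, where 0.363% of all genes were called in either direction. The lowest unadjusted limma p of the 6 was 0.152, for Fcgr4. The difference of IL-4 effects, high minus low, was 0.04 ± 0.08 for Fcgr2b and -0.08 ± 0.28 for Fcgr1. The intervals ran from -0.15 to 0.22 and, more widely, from -0.72 to 0.57.

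Most members made up a larger share of the library, in TPM, in gels than on TC plates, and Fcgrt and Fcgr4 stood furthest apart. Transcripts per cell were not measured. Untreated Fcgrt was at 37.9 and 38.1 TPM on TC plates, 258 and 231 TPM in low- and 227 and 184 TPM in high-collagen gels. It was higher by 2.65 ± 0.10 and 2.40 ± 0.10 (limma adjusted p = 4.08e-08 and 5.54e-08), and 0.641% and 0.885% of genes had a larger rise. Untreated Fcgr4 was at 32.1 and 35.4 TPM on TC plates and at 167 to 182 TPM over the 4 untreated gel libraries, higher by 2.31 ± 0.07 and 2.34 ± 0.07 (limma adjusted p = 2.41e-08 and 1.62e-08).

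Fcgr2b was at 297 and 292 TPM on untreated TC plates and at 1024 to 1120 TPM in the untreated gels. The difference was 1.87 ± 0.05 in low- and 1.82 ± 0.05 in high-collagen gels (limma adjusted p = 1.42e-08 and 1.45e-08). The untreated gels thus stood at the level of IL-4-treated TC plates (1054 and 1113 TPM), and these libraries overlapped. Fcgr3 was higher by 0.87 ± 0.05 and 0.81 ± 0.05 (limma adjusted p = 7.85e-07 and 1.13e-06). Fcgr1 was higher by 0.72 ± 0.20 and 0.67 ± 0.20 (limma adjusted p = 0.0104 and 0.0142).

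Fcer1g did not pass in the untreated comparisons, at 2215 and 2228 TPM on TC plates against 2192 to 2393 TPM in the gels. Its differences were 0.06 ± 0.05 and -0.01 ± 0.05 (limma adjusted p = 0.307 and 0.823). Median-ratio rescaling gave 0.24 and 0.18, both called higher, and quantile normalization gave a called -0.13 for high-collagen gels. Of the 6 members, 5 were higher in low- and 5 in high-collagen gels and 0 were lower. Over all genes 28.5% were higher and 44.3% lower in low-collagen gels, and 28.0% were higher and 45.5% lower in high-collagen gels.

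With IL-4 on both sides, 6 of 6 members were higher in low-collagen gels and 6 of 6 in high-collagen gels than on TC plates. Over all genes 22.8% were higher and 52.2% lower in low-collagen gels, and 26.5% were higher and 48.1% lower in high-collagen gels. Fcgrt was higher by 2.45 ± 0.10 and 2.20 ± 0.10, and Fcgr4 by 1.93 ± 0.07 and 2.11 ± 0.07. Fcgr2b was higher by 0.68 ± 0.05 and 0.67 ± 0.05, Fcgr3 by 0.41 ± 0.05 and 0.39 ± 0.05, and Fcer1g by 0.63 ± 0.05 in both. The largest adjusted p among these values was 1.39e-04 (limma).

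Fcgr1 was the least certain member here, at 24.2 and 18.2 TPM on TC plates with IL-4, 40.6 and 25.2 TPM in low- and 31.1 and 27.5 TPM in high-collagen gels. Its differences were 0.58 ± 0.20 and 0.46 ± 0.20 (limma adjusted p = 0.0273 and 0.0686). The low-collagen call was lost without low-collagen IL-4 replicate 1 (0.25, limma adjusted p = 0.229). The high-collagen call was lost without TC-plate IL-4 replicate 2 (0.26, limma adjusted p = 0.362) or high-collagen IL-4 replicate 1 (0.37, limma adjusted p = 0.244). Gels and TC plates differ in geometry, vessel and handling as well as in collagen, and these cannot be told apart, nor can fewer responding cells be told from less RNA per cell in bulk samples.

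**Figure D4:**
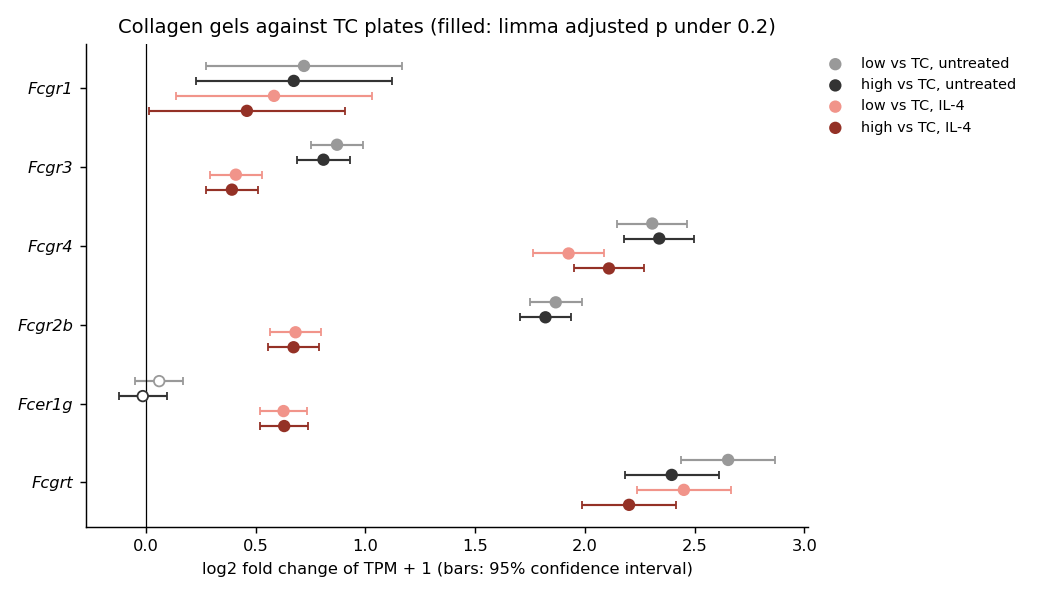
Log2 fold changes of TPM + 1 for collagen gels against TC plates, untreated (greys) and with IL-4 (reds). Points are limma estimates, bars are 95% confidence intervals, and open points did not pass an adjusted p under 0.2. Only the untreated Fcer1g points are open, and Fcgrt reaches 2.65.

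The size of the IL-4 effect depended on the setting for part of the group. Fcgr2b rose by 1.88 on TC plates, 0.69 in low- and 0.73 in high-collagen gels. The difference of effects was -1.19 ± 0.07 for low-collagen gels minus TC plates and -1.15 ± 0.07 for high-collagen gels minus TC plates (limma adjusted p = 3.24e-05 and 6.00e-05). Both differences use the same TC-plate libraries. Fcgr3 had a smaller difference in the same direction, -0.46 ± 0.08 and -0.42 ± 0.08 (limma adjusted p = 0.00502 and 0.0103).

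Fcer1g fell on TC plates and was near 0 in the gels, a difference of 0.57 ± 0.07 and 0.64 ± 0.07 (limma adjusted p = 0.00103 and 7.58e-04). Fcgr4 fell further in low-collagen gels than on TC plates, by -0.38 ± 0.10 (limma adjusted p = 0.0420), a call lost after median-ratio rescaling (-0.24, limma adjusted p = 0.217). For high-collagen gels its difference was -0.23 ± 0.10 and did not pass (limma adjusted p = 0.239). For Fcgr1, which fell by 1.53, 1.67 and 1.74, the differences did not pass, and their intervals were wide, from -0.77 to 0.49 and from -0.84 to 0.42. In all 4 of 6 members were called for low- and 3 of 6 for high-collagen gels, where 28.0% and 17.3% of all genes were called in either direction.

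The activating receptors were then set against inhibitory Fcgr2b within each library, which leaves out any factor that scales a whole library. The summed TPM of Fcgr1, Fcgr3 and Fcgr4 over that of Fcgr2b was 2.44 and 2.55 on untreated TC plates and 1.08 and 1.04 with IL-4. It was 1.36 and 1.32 in untreated low-collagen gels and 0.873 and 0.971 with IL-4, and 1.37 and 1.30 in untreated high-collagen gels and 0.949 and 0.895 with IL-4. In every IL-4-treated gel library the Fcgr2b TPM thus exceeded the summed activating TPM. Fcgr3 made up most of that sum, so this order rests on the estimated split of reads, whose part was not tested. The ratio of every IL-4 library was lower than that of every untreated library. Summed activating TPM itself was higher with IL-4, with means of 735 TPM untreated and 1152 TPM with IL-4 on TC plates. The means were 1445 and 1601 TPM in low-collagen gels and 1396 and 1593 TPM in high-collagen gels.

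Each activating receptor lost ground to Fcgr2b with IL-4. Averaged over the 3 settings, the log2 ratio to Fcgr2b, here of TPM + 1, fell by 2.74 for Fcgr1, by 1.72 for Fcgr4 and by 0.60 for Fcgr3. Each had p = 0.00926 in a two-sided exact permutation test that exchanged libraries within settings, the smallest p that test can give. The 3 ratios share Fcgr2b and the same libraries, so these are not independent results. With IL-4, Fcgr2b rose and Fcgr1 and Fcgr4 fell without overlap of libraries in any setting. For Fcgr1 and Fcgr4 the smallest p was therefore fixed, and the test adds nothing to the single-gene results. A total of 6 permutation tests were made, 3 for IL-4 and 3 for collagen density. The fall was larger on TC plates (-3.40, -2.29 and -1.09) than in low-collagen gels (-2.36, -1.49 and -0.36) or high-collagen gels (-2.47, -1.37 and -0.36), in the order Fcgr1, Fcgr4, Fcgr3. The difference between settings in these ratios was not tested.

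The ratios were also compared between collagen densities. Averaged over both treatments the log2 ratio differed by -0.06 for Fcgr1 (p = 0.889), -0.01 for Fcgr3 (p = 0.833) and 0.14 for Fcgr4 (p = 0.111), in two-sided exact permutation tests over 36 arrangements. The smallest p those tests can give is 0.0556, so they cannot reach 0.05 and say nothing about whether the ratios are stable.

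**Figure D5:**
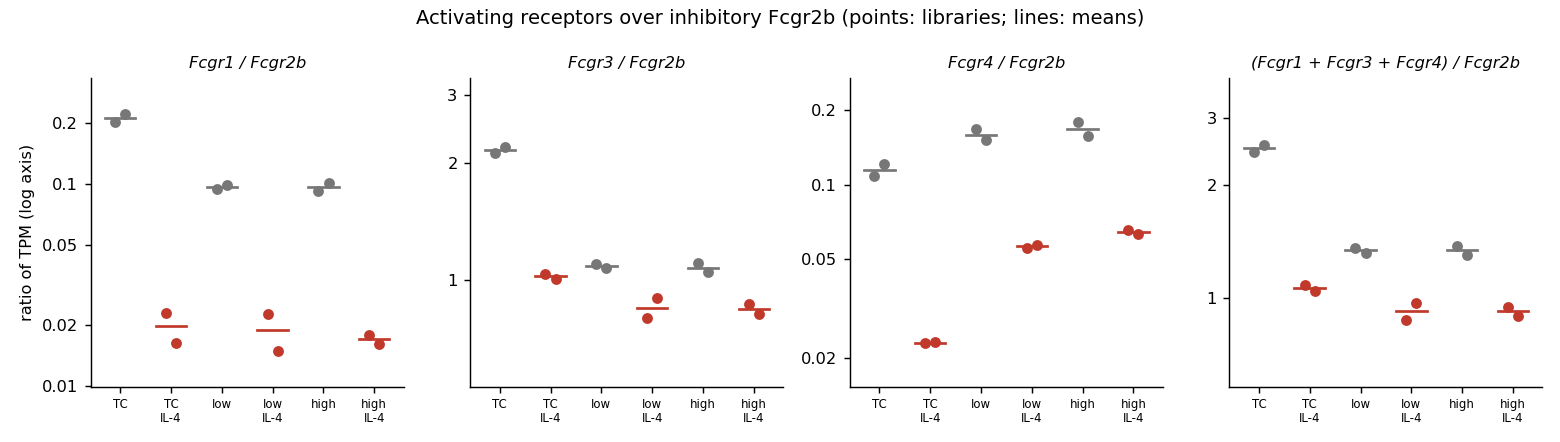
Ratios of TPM on log axes, for each activating receptor and their sum over inhibitory Fcgr2b. Points are libraries, lines are means of 2, grey is untreated and red is IL-4. Each red pair lies below the grey pair of its setting. Over all settings the summed ratio ranges from 2.55, on an untreated TC plate, to 0.873, in a low-collagen gel with IL-4.

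The makeup of the receptor pool changed accordingly. Of the summed TPM of Fcgr1, Fcgr2b, Fcgr3 and Fcgr4, Fcgr2b held 29.1% and 28.1% on untreated TC plates and 48.0% and 49.0% with IL-4. It held 42.1% to 43.4% in untreated gels and 50.7% to 53.4% in gels with IL-4. Fcgr1 held 5.91% and 6.23% on untreated TC plates and 0.753% to 1.22% in all IL-4 libraries. Fcgr4 held at most 7.51%, in an untreated high-collagen library, and at least 1.11%, on a TC plate with IL-4.

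Because the split between Fcgr2b and Fcgr3 was estimated, their sum is given as well, which depends less on it. The sum was 930 and 937 TPM on untreated TC plates and 2149 and 2229 TPM with IL-4, a 2.35-fold difference of means. It was 2176 and 2321 TPM in low-collagen gels and 3197 and 3222 TPM with IL-4 (1.43-fold), and 2154 and 2173 TPM in high-collagen gels and 3242 and 3118 TPM with IL-4 (1.47-fold). The IL-4 libraries stood above the untreated ones in each setting.

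The level of the signalling chain relative to its receptors was lower with IL-4 in each setting, by most on TC plates, and this ratio was not tested. Fcer1g over the summed activating receptors was 3.05 and 2.99 on untreated TC plates and 1.35 and 1.25 with IL-4. It was 1.70 and 1.52 in untreated low-collagen gels and 1.46 and 1.44 with IL-4, and 1.56 and 1.60 in untreated high-collagen gels and 1.40 and 1.52 with IL-4. Syk, the kinase that the chain recruits, was at 118 and 118 TPM on untreated TC plates and 125 and 121 TPM with IL-4 (0.06, limma adjusted p = 0.509). In low-collagen gels Syk fell by 0.57, from 185 and 188 TPM to 131 and 119 TPM (limma adjusted p = 6.34e-04). In high-collagen gels it fell by 0.29, from 195 and 201 TPM to 160 and 163 TPM (limma adjusted p = 0.0221).

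The wider list of ITAM signalling genes was mixed. On TC plates 4 of 25 rose with IL-4 and 8 fell, where 14.7% of all genes rose and 24.0% fell, with a median of -0.05 against -0.06 over all genes. In low-collagen gels 5 of 24 tested rose and 13 fell (all genes 13.2% and 40.4%), with a median of -0.31 against -0.19. In high-collagen gels 4 rose and 11 fell (all genes 11.5% and 22.8%), with a median of -0.09 against -0.10. Among Src-family kinases, which phosphorylate ITAMs, Fyn rose by 1.54, from 67.8 and 66.5 TPM to 201 and 195 TPM on TC plates. Lyn fell by 1.01, from 141 and 135 TPM to 66.5 and 69.1 TPM (limma adjusted p at most 1.05e-05 for both). Fyn rose by 1.84 and 1.76 in low- and high-collagen gels, and Lyn fell by 1.16 and 1.10 (largest limma adjusted p = 1.23e-04).

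Inpp5d and Ptpn6, which encode phosphatases of the inhibitory arm, fell while Fcgr2b rose. Inpp5d, which encodes SHIP1, fell with IL-4 by 0.45 on TC plates, from 150 and 140 TPM to 105 and 106 TPM (limma adjusted p = 0.00267). It fell by 0.79 in low- and 0.64 in high-collagen gels (limma adjusted p = 5.29e-04 and 0.00240). Ptpn6, which encodes the phosphatase SHP-1 used by other ITIM receptors, fell by 0.69, 0.47 and 0.48 on TC plates and in low- and high-collagen gels (largest limma adjusted p = 0.00625). Ptpn11, which encodes the phosphatase SHP-2, did not pass, with differences of -0.14, -0.12 and -0.20 (limma adjusted p = 0.269, 0.384 and 0.214). Of the 16 inhibitory receptors and effectors tested, 4 rose and 10 fell on TC plates, 4 rose and 10 fell in low-collagen gels, and 4 rose and 9 fell in high-collagen gels. The list medians were -0.30, -0.46 and -0.28, against -0.06, -0.19 and -0.10 over all genes. Over all genes 14.7% rose and 24.0% fell on TC plates, 13.2% rose and 40.4% fell in low-collagen gels, and 11.5% rose and 22.8% fell in high-collagen gels. The inhibitory lectin receptor Clec12a fell by 1.56 on TC plates (limma adjusted p = 1.00e-06), and the inhibitory receptor Cd300a rose by 0.46 (limma adjusted p = 0.0301). In the gels Cd300a went the other way, and fell by 0.73 in low- and 0.35 in high-collagen gels (limma adjusted p = 0.00230 and 0.0718).

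B2m, the light chain that pairs with the Fcgrt product, moved differently from it. It was at 3225 and 3149 TPM on untreated TC plates and fell by 0.56 to 2212 and 2112 TPM with IL-4 (limma adjusted p = 1.30e-04). It rose by 0.20 in low- and 0.37 in high-collagen gels (limma adjusted p = 0.0585 and 0.00905). Untreated gels were 0.44 and 0.25 above TC plates for B2m, against 2.65 and 2.40 for Fcgrt. Of the other 14 Fc receptors and partners, 5 passed the filter, and on TC plates 2 rose and 3 fell with IL-4, where 14.7% of all genes rose and 24.0% fell. Their median was -0.56 against -0.06 over all genes. Fcrl1, a receptor-like gene better known from B cells, fell by 2.07 there, from 6.64 and 5.26 TPM to 0.620 and 0.682 TPM (limma adjusted p = 7.34e-05). It fell by 3.11 and 2.34 in low- and high-collagen gels. Fcer1a, which encodes the IgE-binding chain found on mast cells, was listed at 0 on TC plates.

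In the gel comparisons most genes of the engulfment machinery were lower. Of 21 genes of this list tested, 1 was higher and 18 lower in untreated low-collagen gels than on TC plates, and 2 were higher and 15 lower in high-collagen gels. Over all genes 28.5% were higher and 44.3% lower in low-, and 28.0% higher and 45.5% lower in high-collagen gels. The medians were -0.44 and -0.50, against -0.13 and -0.16 over all genes. Cfl1, the actin-severing cofilin, was lower by 1.24 and 1.46, and Elmo1, which helps to activate Rac, by 1.92 and 1.69. Marcks, an actin-binding membrane protein, was higher by 1.40 and 1.24 (largest limma adjusted p of these = 2.50e-06). With IL-4, 12 of 21 fell and 2 rose on TC plates (all genes 24.0% and 14.7%), with a median of -0.15 against -0.06. In low-collagen gels 13 fell and 3 rose (all genes 40.4% and 13.2%; median -0.20 against -0.19), and in high-collagen gels 10 fell and 2 rose (all genes 22.8% and 11.5%; median -0.13 against -0.10).

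Among known regulators of Fc receptor genes, Irf4, an IL-4-induced factor, rose on TC plates by 1.74, from 0.285 and 0.205 TPM to 3.35 and 2.94 TPM (limma adjusted p = 2.99e-05). It rose by 2.86 in low- and 2.06 in high-collagen gels. Il10ra, the ligand-binding chain of the IL-10 receptor, fell by 0.93 on TC plates, from 49.9 and 52.0 TPM to 26.4 and 26.3 TPM (limma adjusted p = 4.20e-06). It fell by 1.21 and 1.01 in the gels, and untreated gels were 1.75 and 1.87 above TC plates.

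Of the 15 regulators tested, 3 rose and 8 fell with IL-4 on TC plates, 3 rose and 9 fell in low-collagen gels, and 4 rose and 9 fell in high-collagen gels. The shares of all genes that rose and fell were 14.7% and 24.0%, 13.2% and 40.4%, and 11.5% and 22.8%. The list medians were -0.17, -0.25 and -0.23, against -0.06, -0.19 and -0.10 over all genes. In untreated gels against TC plates 8 were higher and 4 lower in low-, and 8 higher and 3 lower in high-collagen gels, where 28.5% and 44.3% of all genes were higher and lower in low- and 28.0% and 45.5% in high-collagen gels. The list medians were 0.66 and 0.61, against -0.13 and -0.16 over all genes. Ifngr1, the ligand-binding chain of the interferon gamma receptor, was at 101 and 106 TPM on untreated TC plates and higher by 1.48 and 1.60 in the gels (limma adjusted p = 1.17e-07 and 6.35e-08).

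The members fell into unlike patterns over the 12 libraries, described by Pearson's r of log2(TPM + 1), where the libraries of a condition share their treatment. Fcgr2b and Fcgr3 ran closest together (r = 0.992), and they also share sequence. Fcgr4 and Fcgrt followed (r = 0.947), both higher in gels. Fcgr1 ran loosely against Fcgr2b (r = -0.35), and Fcer1g bore little relation to Fcgr2b (r = 0.03).

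Among 9670 genes at a mean of at least 5 TPM, the ones most like each member were named by rank of r. For Fcgr4 they were Apoe, the lipid-carrying apolipoprotein (r = 0.998), Cyp4f18 (0.997) and Selenop (0.996). For Fcgrt they were Trappc6a (0.993), Mgarp (0.993) and Pink1 (0.990). For Fcgr2b they were Fcgr3 (0.992), Rnf144b (0.992) and Ap2a2 (0.987), and Fcgr3 had Ap2a2 (0.994) first, then Fcgr2b and Rnf144b. For Fcgr1 they were Zfp414 (0.974), Calhm2 (0.972) and C5ar2 (0.971), and for Fcer1g they were Lsp1 (0.962), Slc16a3 (0.958) and Tpi1 (0.956), with weaker likeness than for the other members.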

How the data were processed

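Libraries were prepared by the authors with a stranded TruSeq mRNA protocol and sequenced as short paired reads. The deposited values are gene TPM, which the authors made with kallisto 0.46.1 on the Ensembl mouse transcriptome of GRCm38. How transcripts were joined into genes is not given in the sources used here. The table held 34456 rows, of which 129 exact repeats were removed, and no column was without a sample. TPM sums to nearly the same total in each library, so depth is unknown and no counting interval was computed.

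The members are 6 genes given by name, and the members, lists and tests were chosen with earlier results of these data known. Two-sided tests used limma 3.58.1 in R 4.3.3 on log2(TPM + 1) with 1 mean per condition. The variance prior followed a trend on mean level, p-values were adjusted by Benjamini-Hochberg over all genes, and calls were made at an adjusted p under 0.2 (the level the study used). Genes at a mean of 1 TPM or more entered. Gel comparisons used the 8 gel libraries (11852 genes), and comparisons with TC plates used all 12 (11865 genes). Ratios to Fcgr2b were tested by exact permutation within settings. Nothing in the sources says that the 2 libraries of a condition came from separate cultures or mice, so p-values measure the spread between these libraries, which may be technical.

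Besides the members, the text names at most 4 genes of a list: the 2 largest called rises and falls in the comparison. These had a mean of at least 5 TPM over all 12 libraries, and could be lower in the comparison, as Irf4 was on TC plates. B2m, Inpp5d, Ptpn6 and Syk were named as well. Fcer1a, Ptpn11, Ifngr1 on TC plates and the gel values of genes named from TC plates are given as context. Likeness ranks the 3 highest r per member. Sequences are from GENCODE and RefSeq on GRCm38, and all 6 members matched. The limma step was tested on simulated data: with IL-4 on TC plates (11865 genes) it recovered 89% of 2-fold and 94% of 4-fold changes, and 14.5% of its calls were false. For high against low collagen with IL-4 (11852 genes) it recovered 84% and 98%, with 16.9% false. In these simulations only a small part of the genes changed, all by 2- or 4-fold, with independent noise. The real data had more calls and smaller effects, so these shares need not hold for the calls given here. Alternatives covered the pseudocount, filter, trend, scaling, fit, threshold, a replicate block and each library left out. Some genes that the naming rule selected are not reported here.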

Additional observations from a re-analysis of the deposited data

Results flagged for a closer look

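The IL-4 effect differed between gels and TC plates for 4 members, as limma contrasts that subtract 1 effect from the other, on the scale of log2(TPM + 1). For low-collagen gels minus TC plates the difference was -1.19 for Fcgr2b, -0.46 for Fcgr3, -0.38 for Fcgr4 and 0.57 for Fcer1g. For high-collagen gels minus TC plates it was -1.15 for Fcgr2b, -0.42 for Fcgr3 and 0.64 for Fcer1g. Both sets of differences share the TC-plate libraries, and gels and TC plates were handled differently, so setting and handling cannot be told apart. With 2 libraries per condition, single libraries could not be screened for standing apart from their group.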

How the results depend on the processing

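Over the 12 comparisons and 6 members, 43 results were called, and 38 of these calls held under each alternative run. The 5 exceptions were Fcgr3 with IL-4 in low-collagen gels, Fcgr4 for high against low collagen with IL-4 and for low-collagen gels minus TC plates in the IL-4 effect, and Fcgr1 in both gels against TC plates with IL-4. Of called results, 0 changed sign. Of the 29 not called, 18 changed sign in some alternative. For high against low collagen with IL-4, 1 member was called, but 2 at a mean of at least 5 TPM, with the 4 compared libraries alone or with all 12 libraries in the fit, and 0 without the trend or at an adjusted p under 0.05. Leaving out 1 library gave 0 to 1 there, and 3 to 5 for high-collagen gels minus TC plates in the response to IL-4, where 5 came without untreated high-collagen replicate 2. Quantile normalization called 1 member for high against low collagen, untreated. Median-ratio rescaling, which moved the median of all genes (-0.28 to 0.09 on the log2 scale) close to 0, changed the sign of Fcer1g (0.21) and Fcgrt (0.14) with IL-4 in low-collagen gels, Fcgrt (0.047) in high-collagen gels, Fcer1g for collagen with IL-4 (-0.074) and for untreated high-collagen gels against TC plates (0.18), Fcgr1 for the response to IL-4 in low-collagen gels minus TC plates (2.6e-04), and the interactions of Fcgr2b (-0.067), Fcgr3 (-0.061), Fcer1g (-0.027) and Fcgrt (-0.097). Quantile normalization changed the sign of Fcer1g with IL-4 in high-collagen gels (-0.028), Fcgr1 for collagen untreated (0.0078) and for low-collagen gels minus TC plates (0.0074), and Fcgr2b (0.052) and Fcgr3 (0.089) for collagen with IL-4. The cause was not tested.

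Leaving out 1 library turned these uncalled values over ranges of -0.047 to 0.045 (Fcer1g) and -0.14 to 0.015 (Fcgrt) with IL-4 in low-collagen gels, -0.21 to 0.096 (Fcgrt) with IL-4 in high-collagen gels, -0.14 to 0.042 (Fcgr1), -0.10 to 0.0091 (Fcgr2b) and -0.031 to 0.095 (Fcgr4) for collagen untreated, and -0.46 to 0.21 (Fcgr1), -0.044 to 0.026 (Fcgr2b), -0.072 to 0.036 (Fcgr3) and -0.027 to 0.033 (Fcer1g) for collagen with IL-4. The interaction ranged from -0.41 to 0.26 (Fcgr1), -0.018 to 0.094 (Fcgr2b), -0.0099 to 0.098 (Fcgr3) and -0.14 to 0.16 (Fcgrt), and the response to IL-4 in low-collagen gels minus TC plates from -0.47 to 0.20 (Fcgr1). The collagen effect on the log2 ratio to Fcgr2b ranged from -0.21 to 0.092 for Fcgr1 and from -0.056 to 0.032 for Fcgr3, while the 3 IL-4 effects on ratios kept their sign. Where a condition was left with 1 library, it was assumed to vary like the others. With the replicate number as a block no member's call changed. The numbers did not pair the libraries: over 15 pairs of conditions the correlation of deviations ran from -0.12 to 0.11, and 1 was over 0.1. TPM keeps no depth, the log2(TPM + 1) scale shrinks low genes, and 2 libraries per condition limit every test.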

Other observations

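Fcgr1 had the widest gap between the paired libraries of a condition among the 6 members. In low-collagen gels with IL-4, replicates 1 and 2 were at 40.6 and 25.2 TPM, a gap of 46.8% of the mean. On TC plates with IL-4 they were at 24.2 and 18.2 TPM, a gap of 28.3%. In the other 4 conditions the gap for Fcgr1 was 6.66% to 12.4%.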
